A study of Homo sapiens with 6 samples.

Results

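Solute carriers are membrane proteins that move nutrients, ions, vitamins and waste products across the plasma membrane and the membranes of organelles. The genes carry the symbol SLC, a family number, the letter A and a member number, and were taken here as all symbols of exactly that form, pseudogenes left out. Of 347 such symbols in the RefSeq gene table, 17 had a probe set with a single symbol in the platform annotation, and the other 330 were not analysed here. The 17 are 0.114% of the 14884 genes tested. They belong to 11 families, 5 of which have several measured members. They do not stand for the whole superfamily. The glucose, lactate, zinc and large neutral amino acid transporters that most textbook accounts of cancer cell nutrition deal with are among those not analysed.

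The cells were MM.1S, an established human line of multiple myeloma, a cancer of antibody-secreting plasma cells. On 3 arrays, cells that had a 1 h pulse of Cfz, which commonly stands for the proteasome inhibitor carfilzomib, were then kept for 12 h in 10 µM ATRA (all-trans retinoic acid, which binds the retinoic acid receptors). On the other 3 arrays, cells with the same pulse were kept for 12 h in DMSO, the solvent. All samples thus had Cfz and a single line, and no Cfz-free cells were analysed. No label tells if replicates were separate cultures, so the p-values reflect the spread between these 6 samples, which may be technical, and the number of arrays limits the precision. The files give no slide or scan information, so a batch could not be looked for. In bulk RNA of this kind, fewer cells of a type and less RNA per cell cannot be told apart.

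Most of the 17 genes are recent entries to the SLC nomenclature, and many have a substrate that is not settled. SLC25 carriers sit in the inner mitochondrial membrane. SLC66 proteins belong to the PQ-loop family, whose best known members export amino acids from lysosomes. SLC33, SLC49, SLC60, SLC61, SLC67, SLC68, SLC71 and SLC75 proteins belong to, or resemble, the major facilitator superfamily, in which a rocking motion of a pair of helical bundles carries the substrate across. In plasma cells, transport of amino acids and the export of lysosomal breakdown products support a very high rate of protein synthesis and turnover.

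All values are intensities, the brightness of a gene's probe set, and log2 values are taken from them. The arrays' medians over their probe sets ran from 9.40 to 9.76. Across genes, which are not independent replicates, log2 values correlated at 0.990 to 0.992 within a group and 0.985 to 0.987 across the groups. All 7 measured plasma cell markers of a list of 10 lay above the dim level used here, a log2 intensity of 4.09, which is the 90th percentile of 25 measured markers of other cell types. Of those markers, 22 lay at or under that level, and the brightest averaged 4.91. POU2AF1, the dimmest of the 7 plasma cell markers, averaged 4.13, just above the dim level and under that brightest marker. In limma, 3 of the 7 plasma cell markers (CD38, SDC1 and XBP1) were higher with ATRA and 0 lower, and at an unadjusted p of 0.05 there were 4 higher and 1 lower. SLAMF7 (log2 difference -0.31, adjusted p = 0.112), POU2AF1 (-0.25, adjusted p = 0.383) and IRF4 (-0.17, adjusted p = 0.383) did not pass, though their ATRA arrays lay under all DMSO arrays. Of the markers of other cell types, 0 of 25 passed in either direction (0 higher and 1 lower at an unadjusted p of 0.05). Over all genes, 1.73% passed higher and 2.07% lower, and 7.52% and 10.4% did so at the unadjusted p. The part of either list in the SLC differences was not tested. Of the 17 SLC genes, 15 lay above the dim level in the mean of all arrays and 2 under it, SLC25A2 and SLC60A1. Of all genes, 51.7% lay above that level. Brightness depends on the probes, so levels of different genes were set only against this mark and the brightest marker of other cell types (4.91). Besides the 2 dim genes, SLC25A15, SLC49A3, SLC66A3, SLC67A2 and SLC68A1 averaged under that brightest marker, and their differences are uncertain for that reason.

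With ATRA, 1 of the 17 genes was higher and 0 were lower at an adjusted p of 0.05 (limma, Benjamini-Hochberg over all 14884 genes). SLC67A2 rose 1.77-fold, and the remaining 16 did not pass. The background was 1.73% of all genes higher and 2.07% lower, 3.80% in all, so 1 call among 17 genes is no result about the superfamily. At an unadjusted p of 0.05, 3 members were higher and 3 lower, where 7.52% and 10.4% of all genes were, 17.9% in all. The 3 ATRA values lay above all 3 DMSO values for 3 members and under them for 4, where the background was 9.86% higher and 14.8% lower, 24.7% in all. By the ordinary two-sample test with adjustment, 0 members passed in either direction. The median difference of the 17 was -0.03 on the log2 scale, beside -0.01 over all genes. Their median size regardless of direction was 0.20, beside 0.14 over all genes and 0.16 over the 7700 genes above the dim level.

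**Figure D1:**
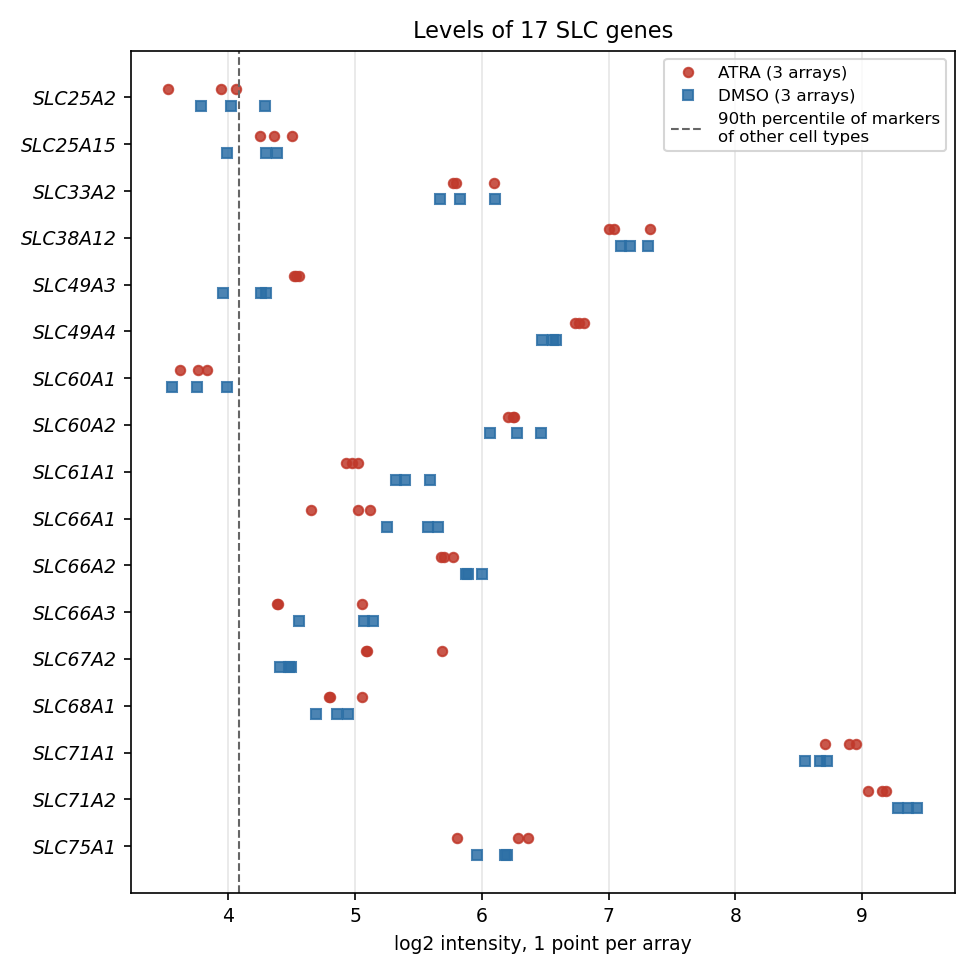
Log2 intensity (horizontal axis) of the 17 SLC genes, listed by family number, with 1 point per array, ATRA as circles above DMSO as squares. The dashed line marks the dim level of 4.09. SLC25A2 and SLC60A1 average under it, and for SLC67A2 the ATRA points lie to the right of all DMSO points.

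SLC67A2, also known as MFSD9, is a major facilitator superfamily protein whose substrate is not settled, so no role is given for it here. Its intensity was 34.2, 51.5 and 33.9 on the ATRA arrays 1, 2 and 3, against 21.3, 22.5 and 22.3 on the DMSO arrays. The groups did not overlap, and ATRA replicate 2 stood above the other ATRA arrays. The means were 39.9 ± 10.0 with ATRA and 22.0 ± 0.661 with DMSO (SD, n = 3 each). The difference was 0.83 on the log2 scale (SE 0.17, 95% interval 0.43 to 1.22, adjusted p = 0.0440 in limma), and 98.5% of all genes had a smaller or equal difference in size. The DMSO level, 4.46 on the log2 scale, lay above the dim level but under the brightest of the non-plasma-cell markers (4.91), and the fold of so weak a signal is uncertain. The call is close to the threshold. Without ATRA replicate 2 the difference was 0.63 and passed (adjusted p = 0.0361). Leaving out any of the other 5 arrays ended the call, with adjusted p between 0.0694 and 0.139, and a shift of all arrays to a common median gave 0.0515.

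SLC67A2 lies head to head with TMEM182, a gene for a transmembrane protein studied mainly in muscle. The genes start on opposite strands with 46 bases between them. The interval is shown because it is the whole stretch between their starts, and reads toward SLC67A2 (RefSeq, GRCh38.p14, chr2:102736889-102736934, minus strand):
SLC67A2: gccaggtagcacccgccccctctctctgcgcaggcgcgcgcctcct
It is 76.1% G and C and has 5 CG pairs. TMEM182 was measured by a separate probe set. Its intensity was 36.9, 46.0 and 40.4 on the ATRA arrays, against 16.5, 20.1 and 19.0 on the DMSO arrays. Again the groups did not overlap, and ATRA replicate 2 was the highest array for this gene too. TMEM182 rose 2.22-fold, by 1.15 on the log2 scale (SE 0.12, 95% interval 0.86 to 1.44, adjusted p = 0.00410 in limma). Its DMSO level, 4.21 on the log2 scale, was just above the dim level and under the brightest non-plasma-cell marker, and its fold is likewise uncertain. It passed in all 6 fits that left out 1 array, with adjusted p from 0.0138 to 0.0245. The pair was looked at because SLC67A2 had passed, so it is a description chosen after that value was seen.

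Genes that start head to head within 1000 bases of each other were counted over all measured genes. The table holds 578 pairs with both genes measured, by RefSeq starts. At least 1 gene passed in 52 of them, exactly 1 gene in 51, and both genes in 1, which is SLC67A2 with TMEM182. Taken singly, 3.80% of all genes passed in either direction. Both members of that pair were higher with ATRA. This count is a description over the whole table and no test was made of it. It includes the pair that was chosen beforehand, so it gives no separate rate to set that pair against. How many such pairs independent genes would give was not worked out.

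**Figure D2:**
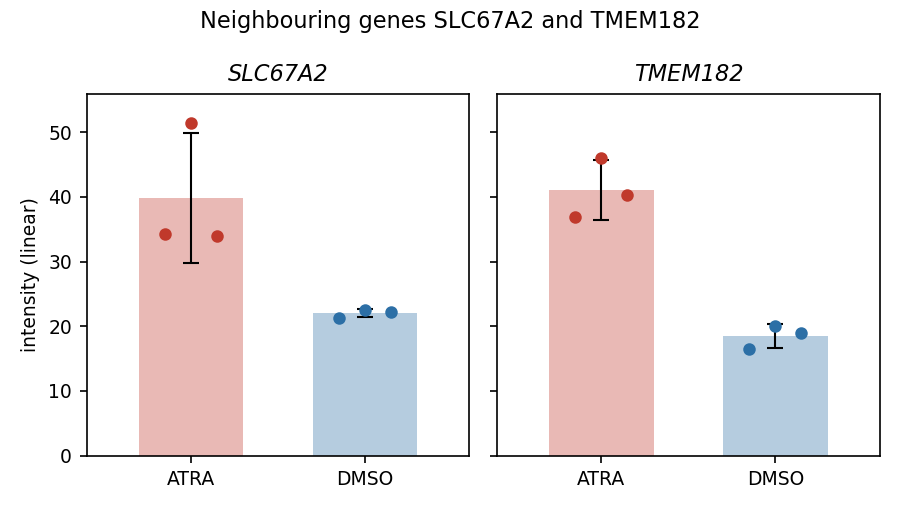
Intensity on a linear scale (vertical axis) of the neighbouring genes SLC67A2 and TMEM182 with ATRA and DMSO. Points are arrays, bars are means of 3 arrays and error bars are SDs. All ATRA points lie above all DMSO points in both panels, and ATRA replicate 2, the middle ATRA point, is the highest for both genes.

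Other measured genes within 3000 bases of an SLC gene did not pass. SASS6, a centriole assembly gene whose end lies next to that of SLC71A1, came closest. Its intensity was 116, 115 and 125 on the ATRA arrays, against 152, 174 and 153 on the DMSO arrays, a log2 difference of -0.43 (adjusted p = 0.0657 in limma). SLC71A1 itself had a difference in the other direction, 0.20. RECQL4, a helicase gene that borders SLC33A2 with 74 bases between them, differed by -0.55 (adjusted p = 0.226), where SLC33A2 differed by 0.02. HSPBAP1, head to head with SLC49A4, differed by 0.05 (adjusted p = 0.883), and ADD1, next to SLC75A1, by -0.18 (adjusted p = 0.319). The antisense RNA SLC60A1-AS1 was dim, at log2 levels of 2.47 with ATRA and 2.53 with DMSO. How far the probes tell SLC60A1 from this overlapping antisense transcript was not tested.

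Among the lysosomal and PQ-loop genes, SLC66A1 exports lysine and arginine from lysosomes. Its intensity was 34.6, 32.5 and 25.2 on the ATRA arrays, against 47.8, 50.2 and 38.0 on the DMSO arrays. The groups did not overlap, with replicate 3 the lowest array in each. SLC66A1 had the most negative difference of the 17, -0.56 on the log2 scale (SE 0.16, 95% interval -0.94 to -0.19), and did not pass (adjusted p = 0.118 in limma). SLC66A2 averaged 52.6 ± 1.84 in ATRA-treated cells and 60.7 ± 2.95 in DMSO-treated cells (SD, n = 3 each), with no overlap and a difference of -0.21 (adjusted p = 0.281). SLC66A3 was at 21.0, 20.9 and 33.3 with ATRA and at 23.6, 33.5 and 35.2 with DMSO. Here the groups overlapped, since ATRA replicate 3 lay among the DMSO arrays, and the difference of -0.31 had a wide interval of -0.84 to 0.22 (adjusted p = 0.544). All 3 SLC66 differences were negative in every alternative run, leaving out arrays included, and none passed in any of them. The median of the 3 was -0.31.

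Both measured SLC49 genes had positive differences, and neither passed in any setting tried. SLC49A4, also called DIRC2, encodes an electrogenic protein of the lysosomal membrane. It was at 106, 112 and 109 on the ATRA arrays, against 94.3, 95.7 and 89.1 on the DMSO arrays. The groups did not overlap, and the difference was 0.23 (SE 0.086, adjusted p = 0.220 in limma). SLC49A3, a relative with no settled substrate, was at 22.9, 23.6 and 23.1 with ATRA, against 19.1, 19.6 and 15.5 with DMSO. The difference was 0.37 (SE 0.11, 95% interval 0.10 to 0.63) and did not pass (adjusted p = 0.145). The DMSO level of SLC49A3, 4.17 on the log2 scale, was just above the dim level and under the brightest non-plasma-cell marker (4.91), so its difference is uncertain. DMSO replicate 3 was the lowest array for both genes, and without it the differences were 0.20 for SLC49A4 and 0.26 for SLC49A3.

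SLC61A1, also called MFSD5, has been linked to the uptake of molybdate, the oxyanion of the metal in the molybdenum cofactor. Its intensity was 31.5, 32.4 and 30.4 on the ATRA arrays, against 40.0, 48.1 and 42.1 on the DMSO arrays. The ATRA arrays lay close together and under all DMSO arrays. The difference was -0.46 (SE 0.10, 95% interval -0.70 to -0.22), just short of the threshold (adjusted p = 0.0570 in limma). It passed where fewer genes were tested, with adjusted p of 0.0182 without the dimmer 50% of genes, 0.0408 without the dimmer 25% and 0.0412 among protein-coding genes alone. With 1 array left out it did not pass in any of the 6 fits (adjusted p 0.0986 to 0.163).

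The bases just before the starts of SLC61A1 and SLC66A1 are shown because these genes had the most negative differences. Retinoic acid receptors bind direct repeats of short half-sites such as AGGTCA and GGGTCA, and capitals mark either half-site or AGTTCA on either strand. The stretches end at the base before the start and are cut where a neighbouring gene begins (RefSeq, GRCh38.p14). That of SLC61A1 is chr12:53251845-53252094, plus strand, and that of SLC66A1 is chr1:19312147-19312325, plus strand:
SLC61A1: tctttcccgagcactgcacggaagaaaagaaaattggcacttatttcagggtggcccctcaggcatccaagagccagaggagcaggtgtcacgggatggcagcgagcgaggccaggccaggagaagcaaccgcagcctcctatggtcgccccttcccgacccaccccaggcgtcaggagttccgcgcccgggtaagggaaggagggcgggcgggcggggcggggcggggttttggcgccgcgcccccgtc
SLC66A1: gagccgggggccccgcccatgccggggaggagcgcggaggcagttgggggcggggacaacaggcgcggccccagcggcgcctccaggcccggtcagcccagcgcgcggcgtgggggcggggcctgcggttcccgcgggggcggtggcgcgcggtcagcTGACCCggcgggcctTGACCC
SLC66A1 holds 2 copies of GGGTCA, written here as its complement TGACCC, and the nearer copy ends directly at the start. The bases between the copies are ggcgggcct. The only direct repeat searched for here was of AGGTCA with 5 bases between the copies, so that search does not cover these copies. Whether a receptor binds them was not tested. SLC61A1 holds none of these half-sites in its stretch.

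Sequence was at hand for 14 of the 17 genes, in 15 windows of 250 bases before a start. No entry was found for SLC25A2, SLC33A2 and SLC66A2. Each motif was searched on both strands, and matches may overlap. AGGTCA was in 0 of the 15 windows, where 12.1% of all 34943 windows hold it, and AGTTCA in 0, where 8.81% do. GGGTCA was in 3, those of SLC60A2, SLC66A1 and SLC68A1, where 12.0% do. A direct repeat of AGGTCA with any 5 bases between the copies was in 0, where 0.00286% do. CACGTG, which reads the same on both strands and lies in many lysosomal and MYC-bound promoters, was in 1, that of SLC60A2, where 6.32% do. TGATGCAA, a form of the element bound by ATF4, was in 0, where 0.776% do. A match is a description of these letters and not a binding site.

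The SLC71 genes encode a pair of related proteins that resemble sugar transporters, and mouse Slc71a1 (Mfsd14a) is needed for normal sperm head formation. SLC71A1 was at 477, 495 and 417 on the ATRA arrays, against 375, 406 and 423 on the DMSO arrays. The groups overlapped by ATRA replicate 3, and the difference was 0.20 (95% interval -0.04 to 0.45, adjusted p = 0.378 in limma). SLC71A2 was at 582, 571 and 527 with ATRA, against 658, 621 and 692 with DMSO, without overlap. Its difference was -0.23 (95% interval -0.45 to -0.01, adjusted p = 0.254), and of all settings tried it passed in 1, limma's moderation by a robust trend of variance on level (adjusted p = 0.0270). The change of SLC71A1 less that of SLC71A2, taken within each array, was 0.43 (SE 0.069), and the 3 ATRA ratios did not overlap the 3 DMSO ratios. The exact two-sided permutation test gave p = 0.1, the smallest that 3 against 3 arrays allow, and 0.35 adjusted over the 7 pairs of measured genes of the same family.

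The other family pairs differed less or no more in rank. The change of SLC49A3 less that of SLC49A4 was 0.14 (SE 0.077, exact permutation p = 0.1, adjusted p = 0.35), also without overlap. Between SLC66A1 and SLC66A2 it was -0.35 (SE 0.18, exact permutation p = 0.2), and for the other 4 pairs the exact permutation p lay between 0.4 and 1. The design cannot reach 0.05 for any of the 7 pairs, so these tests neither separate the members of a family nor show that they moved alike.

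**Figure D3:**
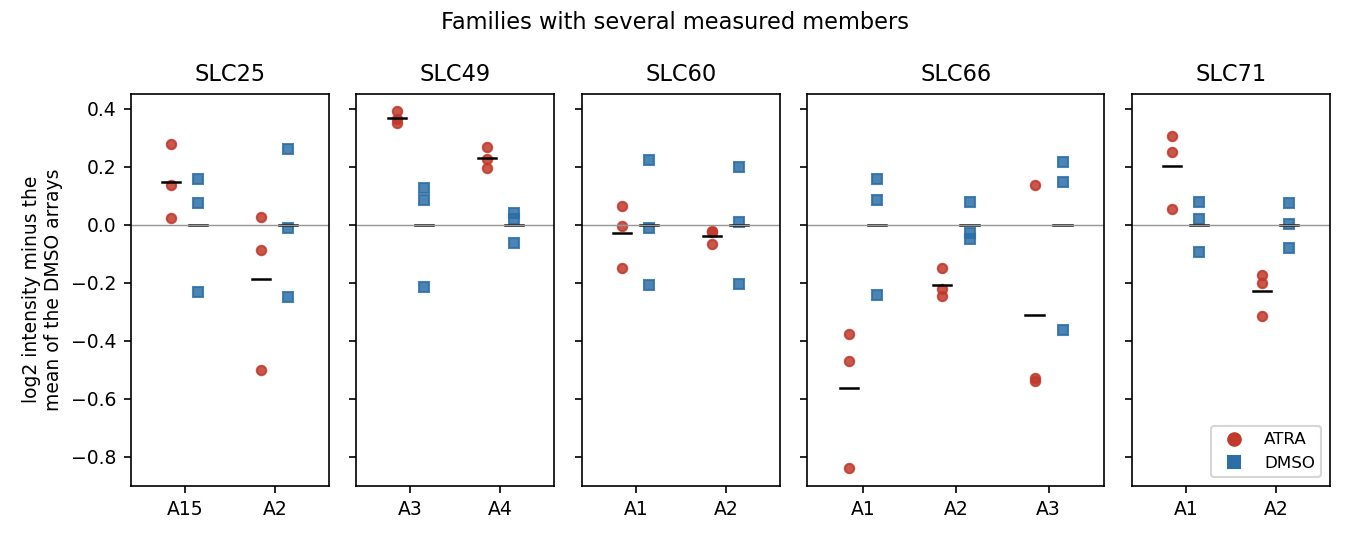
Log2 intensity less the mean of the DMSO arrays (vertical axis) for the 5 families with several measured members, ATRA as circles left of DMSO as squares, short bars for group means. Both SLC49 members lie above 0 with ATRA and all 3 SLC66 means lie under it, while SLC71A1 (0.20) and SLC71A2 (-0.23) lie on opposite sides.

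SLC25A15 carries ornithine and citrulline across the inner mitochondrial membrane for the urea cycle and polyamine synthesis, and its loss in people causes a disorder with high blood ornithine and ammonia. It was at 22.6, 20.6 and 19.0 on the ATRA arrays, against 20.8, 15.9 and 19.7 on the DMSO arrays. These ranges overlapped, with a difference of 0.15 (95% interval -0.16 to 0.45, adjusted p = 0.632 in limma). SLC25A2, a close relative that also carries ornithine, was dim, at 14.5 ± 2.66 with ATRA and 16.5 ± 2.91 with DMSO (SD, n = 3 each), with a difference of -0.19 (adjusted p = 0.657). These 2 were the measured members of a list of 50 mitochondrial carriers.

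SLC38A12, a relative of the glutamine and neutral amino acid transporters, was at 132, 160 and 128 on the ATRA arrays, against 144, 159 and 137 on the DMSO arrays. The groups overlapped fully, with a difference of -0.07 (95% interval -0.35 to 0.21, adjusted p = 0.823 in limma). SLC60A2, whose rat counterpart is a sodium-dependent glucose transporter of the kidney, averaged 75.2 ± 1.35 in ATRA and 77.7 ± 10.8 in DMSO (SD, n = 3 each) and differed by -0.04 (adjusted p = 0.909). SLC60A1 was dim, averaging 13.4 ± 0.990 in ATRA and 13.7 ± 2.06 in DMSO, and differed by -0.03 (adjusted p = 0.937). For SLC38A12 and SLC60A1 the means differed by less than the SD of either group, and for SLC60A2 by less than the DMSO SD but more than the ATRA SD.

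For the last 3 genes the means differed by less than the SD of either group. SLC33A2, named beside the acetyl-CoA transporter SLC33A1 of the endoplasmic reticulum, was at 59.5 ± 7.73 with ATRA and 58.7 ± 9.06 with DMSO (SD, n = 3 each). Its difference was 0.02 (95% interval -0.32 to 0.36, adjusted p = 0.959 in limma) and turned to -0.0047 once all arrays had been brought to 1 median. SLC68A1 averaged 29.6 ± 3.16 in ATRA and 28.5 ± 2.49 in DMSO and differed by 0.05 (adjusted p = 0.864). SLC75A1, also called MFSD10 and related to bacterial tetracycline exporters, had log2 levels of 6.15 with ATRA and 6.12 with DMSO. ATRA replicate 1 was the lowest of the 6 arrays and ATRA replicate 2 the highest, and the difference was 0.03 (95% interval -0.34 to 0.41, adjusted p = 0.943).

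**Figure D4:**
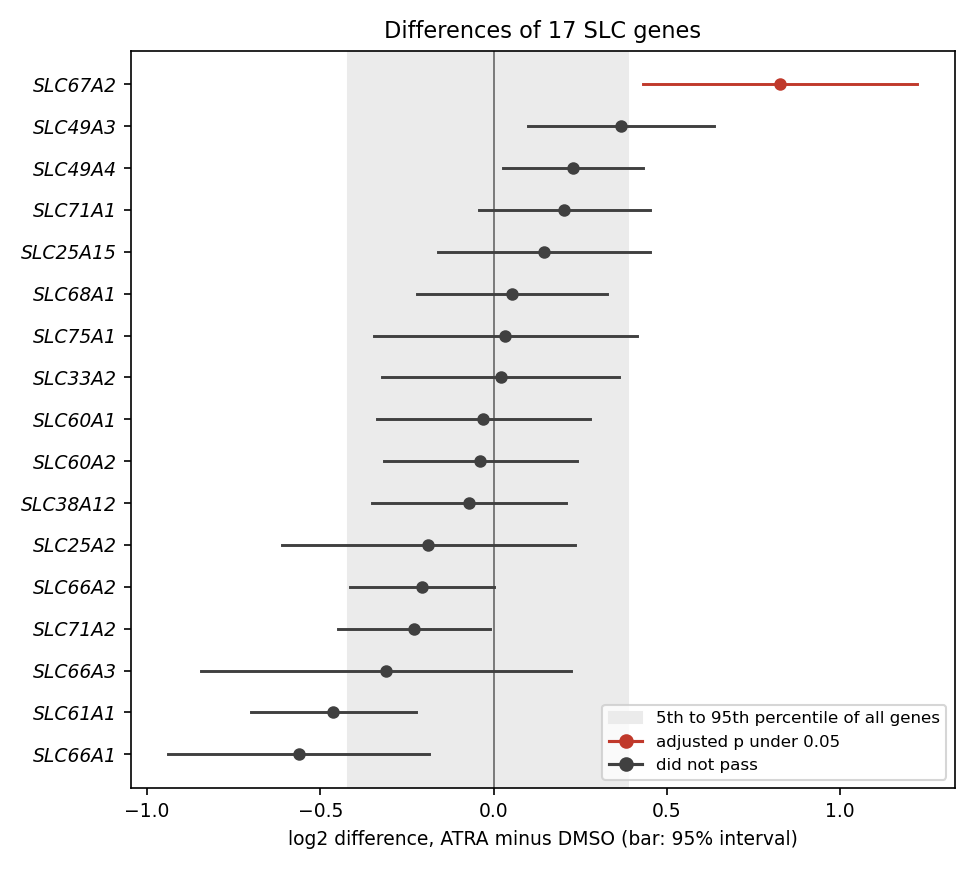
Log2 difference, ATRA minus DMSO (horizontal axis), of the 17 SLC genes from the highest to the lowest, with 95% intervals from limma as bars. The grey band runs from the 5th to the 95th percentile of all genes (-0.42 to 0.39), and SLC67A2, SLC61A1 and SLC66A1 lie outside it.

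A broader set of genes carries a symbol of the form used here only as an alias in the RefSeq table. The set was drawn up after the 17 members were known, and not all of its genes are established transporters. Of 41 measured genes of 73, 0 rose and 1 fell with ATRA in limma, and 40 did not pass. At an unadjusted p of 0.05, 3 were higher and 7 lower. Over all genes, 1.73% passed higher and 2.07% lower, and 7.52% and 10.4% did so at the unadjusted p. So 1 call among 41 genes is no result about the set. The median difference was -0.05, beside -0.03 for the 17 members and -0.01 for all genes. NIPA2, a magnesium transporter, fell to 263, 262 and 259 on the ATRA arrays, against 337, 347 and 357 on the DMSO arrays. These arrays lay close together within each group, and the fall was 0.41 on the log2 scale in size (log2 difference -0.41, adjusted p = 0.0442 in limma). The ordinary two-sample test also called it lower and none of the 41 higher, and leaving out any array ended the call in limma, with adjusted p from 0.111 to 0.143. The call was also lost with the replicate number as a block (adjusted p = 0.136), with quantile (0.0543) or cyclic loess normalization (0.0665) and with limma's treat at 1.2-fold (1.00). NIPA1, its relative, was at 76.9 ± 3.22 with ATRA and 101 ± 14.1 with DMSO (SD, n = 3 each) and did not pass (log2 difference -0.39, adjusted p = 0.154). In the same set, NIPAL3 (log2 difference 0.35, adjusted p = 0.106 in limma) and LETMD1 (0.49, adjusted p = 0.0698) differed in the other direction. Their ATRA arrays lay above all DMSO arrays, and they did not pass either. Of the 41 genes, 15 had a positive and 26 a negative difference.

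Among other genes with such an alias, STRA6, the cell surface receptor that takes up retinol from its binding protein, was dim, with log2 levels of 3.45 (ATRA) and 3.48 (DMSO). Its difference was -0.03 (adjusted p = 0.957 in limma). The mitochondrial pyruvate carrier subunits MPC1 (log2 difference -0.02, adjusted p = 0.957) and MPC2 (-0.08, adjusted p = 0.692) and the phosphate exporter XPR1 (-0.12, adjusted p = 0.561) did not pass either. A list of 74 transporters and helper proteins with other names, which shares genes with this set, had 29 measured members, of which 0 rose, 1 fell (NIPA2) and 28 did not pass. Over all genes, 1.73% passed higher and 2.07% lower, so 1 call among 29 is no result about this list. On that list BSG, the partner protein that brings lactate transporters to the cell surface, was at 3453 ± 76.3 with ATRA and 3724 ± 102 with DMSO (SD, n = 3 each). Its groups did not overlap, but the difference of -0.11 did not pass (adjusted p = 0.565).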

How the data were processed

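Total RNA of 6 MM.1S samples was measured on arrays after labelling with a GeneChip WT PLUS kit, per the labels. The deposited table gives linear intensities of 53617 probe sets on each array, and RMA and limma, without versions or roles, are named in the submitters' processing notes. No genome build is stated in those sources. Values were turned to log2 with no pseudocount. Of all probe sets 16098 (30.0%) had 1 symbol, 0 had several and 37519 are unnamed here. A gene was tested by its brightest probe set, and each SLC member had 1. The 2 groups were compared in limma 3.58.1 under R 4.3.3 (lmFit, eBayes, two-sided, Benjamini-Hochberg over 14884 genes), without a block or filter. Ratios within families were tested exactly in SciPy 1.17.1. Same-numbered arrays of the groups deviated together hardly at all (correlations 0.0170, 0.00867 and 0.0161). No arrays were identical. The steps were tested on simulated data.

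The members and lists were chosen with earlier results of these data known. The naming rule took members that passed, the brightest and the most changed of each substrate class, and genes of the other lists that passed, and all 17 members are described. STRA6, MPC1, MPC2, XPR1, BSG, NIPA1, NIPAL3, LETMD1, SLC9A3-OT1, SLC9D1 and the neighbouring genes were chosen after values were seen. A table of 346 SLC symbols by substrate placed 3 members (SLC66A1, SLC25A15 and SLC25A2) in a substrate class, and 14 were other or unassigned. Lists of transporters linked to ATF4, MYC or lipid synthesis had 0 measured members. Alternatives were a block for the replicate number, fits without each array in turn, dim-gene filters, other normalizations, variance models and tests, other treatment of probe sets and, chosen after seeing the data, protein-coding genes alone.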

Additional observations from a re-analysis of the deposited data

How the results depend on the processing

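The count of SLC genes higher with ATRA was 1. It was 0 with the replicate number as a block, with arrays shifted to a common median, with limma's treat at 1.2-fold and with the ordinary two-sample test, and lay between 0 and 1 with 1 array left out. The adjusted p of SLC67A2 was 0.0808 with the block and 0.155 in the ordinary test. The count lower with ATRA was 0, and 1 without the dimmer 50% of genes, without the dimmer 25%, with protein-coding genes alone (SLC61A1 each time) and with eBayes with trend and robust (SLC71A2). These filters test fewer genes. The block changed no other call of a member. Small differences turned sign with 1 array left out, for SLC33A2 (-0.083 to 0.14), SLC60A1 (-0.13 to 0.081), SLC60A2 (-0.14 to 0.061), SLC68A1 (-0.034 to 0.11) and SLC75A1 (-0.072 to 0.21), and for SLC33A2 also with a common median (-0.0047). The cause was not tested. Low signal limits SLC25A2 and SLC60A1 most.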

Other observations

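Long non-coding RNAs named after an SLC gene were measured for 14 loci, of which 12 lay under the dim level. In limma 0 of the 14 passed in either direction, where 1.73% of all genes passed higher and 2.07% lower. By the ordinary two-sample test 0 passed, and at an unadjusted p of 0.05 in limma 1 was higher and 0 lower. Over all genes, 7.52% were higher and 10.4% lower at that p. The 1 of the 14 that was higher was SLC9A3-OT1, at 44.6, 65.2 and 62.8 on the ATRA arrays, against 43.0, 36.0 and 40.1 on the DMSO arrays. The groups did not overlap, though ATRA replicate 1 lay close to the highest DMSO array, and the log2 difference was 0.52 (adjusted p = 0.147 in limma).

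Of 6 other coding genes whose symbols begin with SLC, 0 passed in limma in either direction, where 1.73% of all genes passed higher and 2.07% lower. At an unadjusted p of 0.05, 1 was lower and 0 higher. Over all genes, 7.52% were higher and 10.4% lower at that p. SLC51A, 1 of the 6, also belongs to the set with an SLC alias. SLC9D1, better known as TMCO3, was at 155, 142 and 156 with ATRA, against 184, 187 and 201 with DMSO, without overlap (log2 difference -0.34, adjusted p = 0.103).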
